A study of Mus musculus with 2 samples.

Results

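Stratified squamous epithelial cells were a rare population of 51 cells, all in the cKO library, among 7397 kept cells of both libraries. They were chosen by measured values: a cell was a member when Krt5, Krt14, Krt15, Trp63, Lgals7 and Krtdap together reached at least 10 unique molecular identifiers (UMIs, one per captured RNA molecule) per 10000, at least 3 of these 6 genes were detected, and Ptprc, the pan-leukocyte marker, stayed under 1 per 10000. Kept cells had at least 500 genes, at least 3000 UMIs and at most 25% mitochondrial UMIs, and no doublets were removed. The cKO library held 51 members among 3335 kept cells (1.53%, exact 95% interval 1.14 to 2.01). The WT library held 0 of 4062 (0%, exact 95% interval 0 to 0.0908). Because the 6 genes defined the members, their levels are a description, and the contrast with other cells carries no test.

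The study profiled intestinal tumours of mice treated by the AOM-DSS protocol (the mutagen azoxymethane plus dextran sulfate sodium, an irritant of the colon lining), by droplet single-cell RNA sequencing. Both groups carry the floxed allele Mtch2fl/fl. WT has no Cre, and cKO (Mtch2fl/fl VilCre) also carries Cre driven by the promoter of Villin, a brush-border gene of intestinal epithelial cells. The tumours of each genotype were pooled into 1 library per genotype, so there was no replicate check and no p-value was computed. How many mice there were, and their ages and sexes, is unknown here.

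Stratified squamous epithelium covers the skin, the oral cavity, the oesophagus and the anal canal, where it meets the glandular lining of the rectum. Its basal cells attach to the basement membrane through hemidesmosomes, express Krt5 and Krt14 under the control of p63 (the product of Trp63), and divide. Suprabasal cells leave that membrane, switch keratins (to Krt1 and Krt10 in epidermis, to Krt4 and Krt13 in moist mucosa) and build desmosomes and, in skin, a cornified envelope. The glandular colon epithelium is a single layer that expresses the simple keratins Krt8, Krt18, Krt19 and Krt20 instead.

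The label was checked against its 6 markers, which also chose the cells. Krt14 was detected in 50 of the 51 cells, Lgals7 (galectin 7) in 50, Krt5 in 48, Trp63 in 47, Krt15 in 43 and Krtdap, a secreted protein of differentiating keratinocytes, in 35. All 6 genes were found in 28 cells, 5 genes in 16, 4 genes in 4 and 3 genes in 3. The 6-gene sum ranged from 10.08 to 266 UMIs per 10000 with a median of 125. The 3 members closest to the threshold had sums of 10.08, 11.3 and 26.4, and the closest cells outside it, among those that met the other criteria, had 4.01 in the cKO and 7.18 in the WT library. Another 2 cKO cells, with sums of 29.3 and 165, failed on Ptprc alone, and 4 cKO and 7 WT cells failed on the number of genes alone.

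The members were as deep as the glandular epithelium they were compared with. Their median was 37436 UMIs (3663 to 146291) and 6206 genes per cell, with a median mitochondrial share of 4.14%. The comparison population was 1494 glandular cells of the same library, which had at least 20 UMIs per 10000 of Epcam, Krt8, Krt18, Krt19, Lgals4, Cldn3, Cldn7 and Cdh17, at least 4 of these 8 genes, a squamous sum under 1 and Ptprc under 1. They had a median of 36934.5 UMIs and 5.93% mitochondrial UMIs. A background population of 771 cKO cells with at least 2 Ptprc UMIs per 10000 and a glandular sum under 10 had a median of 9263 UMIs. The libraries shared 22 barcodes, of which 5 were kept in both and 0 belonged to a member.

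Not all members were free of glandular transcripts. The sum of the 8 glandular genes lay between 2.67 and 18.03 per 10000 in 44 members and between 24.3 and 198 in the other 7. Those 7 cells were deeper, with a median of 76910 UMIs against 35057, and held 624962 of the members' 2347270 UMIs. The 2 cells with the highest glandular sums, 136 and 198, were also the 2 nearest the threshold and the 2 that lacked both Krt5 and Trp63. In 6 of the 7, both Xist, the X-inactivation RNA of female cells, and transcripts of the Y chromosome were found. A doublet caller (Scrublet) marked 1 member, which was not among the 7. Whether these barcodes held more than 1 cell was not tested. Values are given for all 51 members, and beside them for the 44 where the glandular genes matter.

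**Figure D1:**
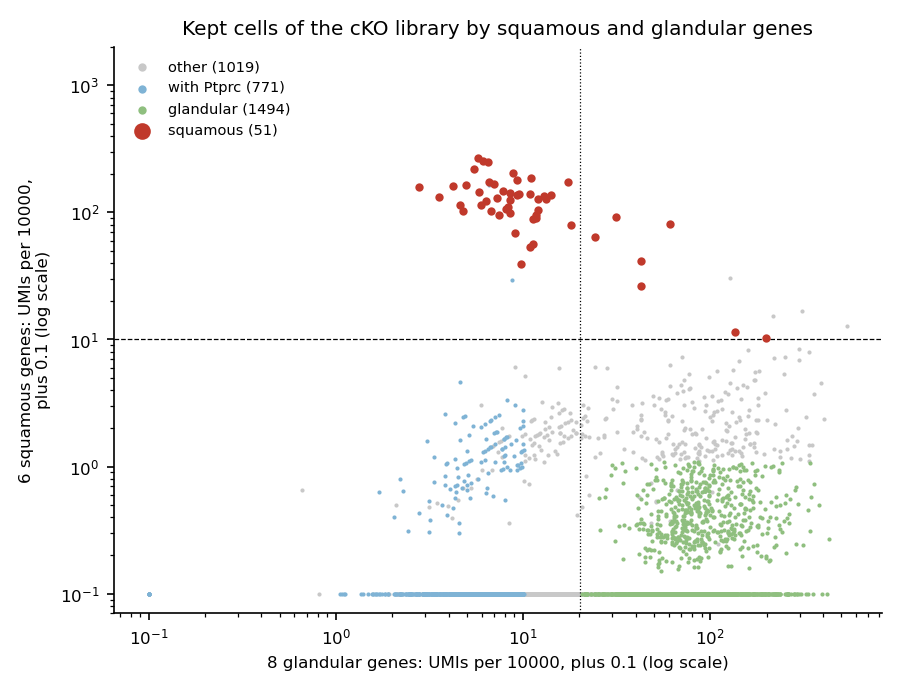
Each point is 1 kept cell of the cKO library, with the sum of the 8 glandular genes (x axis) against the sum of the 6 squamous genes (y axis), both in UMIs per 10000 plus 0.1 on log scales. Broken and dotted lines mark 10 squamous and 20 glandular UMIs per 10000. The 51 squamous cells stand above the other populations, 44 of them left of the dotted line, and the few other points above the broken line failed on Ptprc or on the number of genes.

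Levels are given as CPM (1 UMI per 10000 equals 100 CPM), from UMIs summed over the cells of a population, with an exact Poisson 95% interval. Differences are log2 ratios of squamous over glandular CPM with a conditional binomial 95% interval. Both intervals cover counting error only, not mice, tumours or cells. A gene is called higher or lower when it differed at least 2-fold and its interval excluded equal levels. Of 7839 genes at 20 CPM or more in either population, 647 were higher (8.25%) and 1034 lower (13.2%) in squamous cells, and the median log2 ratio was -0.12. With the 44 members these numbers were 829 and 1397 of 7938.

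Keratins of stratified epithelium dominated the members. The 10 measured stratified keratins were all higher, 3 of them by the rule that chose the cells, with a median log2 ratio of 7.33. Krt14 stood at 4616 CPM (4529 to 4703) in squamous cells and 9.49 CPM in glandular cells. Krt5, its type II partner, stood at 2485 CPM (2422 to 2550) against 1.64. Across single members Krt14 ran from 0 through a median of 4162 to 19000.3 CPM, and Krt5 from 0 through 2642 to 6512. Every member with Krt5 also had Krt14, 48 in all. Both genes lie in the keratin clusters of GRCm38, Krt5 (ENSMUSG00000061527) on chromosome 15, 101707070 to 101712898, minus strand, and Krt14 (ENSMUSG00000045545) on chromosome 11, 100203162 to 100207548, minus strand.

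Keratins of activated and wounded epithelium followed. Krt6a, which keratinocytes switch on after injury, stood at 2192 CPM (2133 to 2253) against 7.97, a log2 ratio of 8.10 (7.97 to 8.24), and was found in 49 members. Krt16, its type I partner, stood at 853 CPM against 7.56, with a ratio of 6.82 (6.67 to 6.97), in 46 members. Krt17 was the keratin with the least contrast, at 653 CPM against 150 CPM in glandular cells, a ratio of 2.12 (2.04 to 2.20). After each cell was thinned to 3000 UMIs, Krt6a was found in 84.3% of squamous, 1.94% of glandular and 0.65% of Ptprc cells. Krt6a and Krt6b are near-identical neighbours, so the split of reads between them is uncertain.

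The differentiation keratins were patchy. Krt13 was found in 39 members and summed to 736 CPM, but its median member had 113 CPM and the highest 12946, which held 34.9% of its UMIs. Krt4 was found in 23 members, with 47.0% of its 583 UMIs in 1 cell. Of the epidermal pair, Krt10 was found in 21 members at 53.7 CPM with 70.6% of its UMIs in 1 cell, and Krt1 in 8 members at 13.6 CPM. Krt2, of the upper epidermis, had 0 UMIs. The mucosal pair Krt4 and Krt13 thus had a higher summed level than the epidermal pair.

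**Figure D2:**
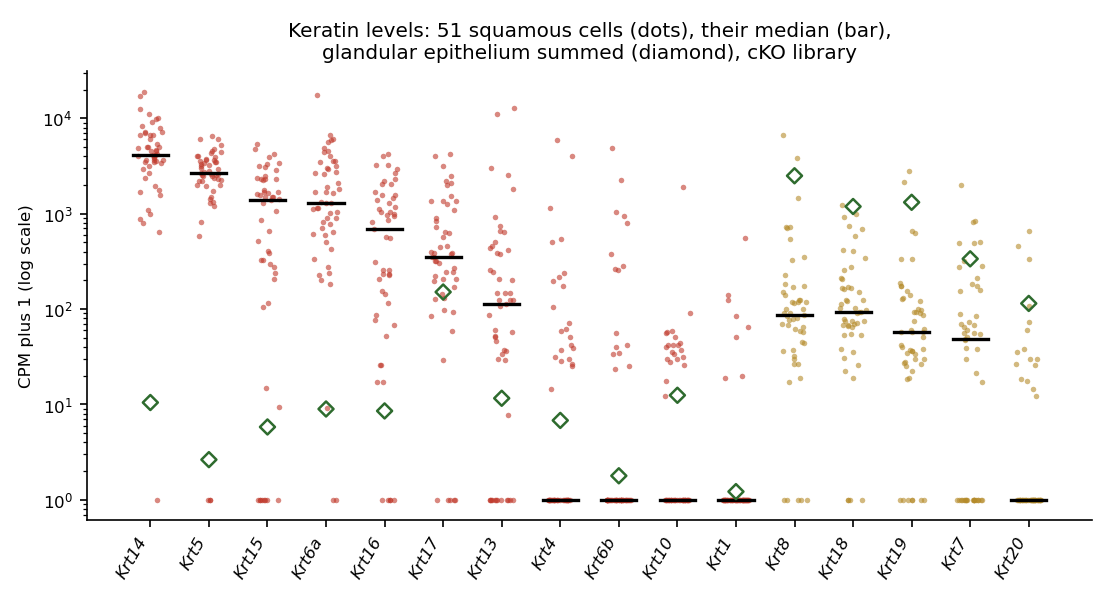
Keratin levels in CPM plus 1 (log axis) for the 51 squamous cells (dots), with their median as a bar and the summed level of the 1494 glandular cells as an open diamond. Krt14, Krt5, Krt15, Krt6a and Krt16 medians lie between 686 and 4162 CPM, far above the diamonds, while Krt8, Krt18 and Krt19 medians lie below them.

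Simple keratins were low, and most of what was counted came from the 7 cells with a high glandular sum. In the 51 members Krt8 stood at 738 CPM against 2497 in glandular cells, with 47.5% of its UMIs in 1 cell. In the 44 members it stood at 79.0 CPM (66.3 to 93.4), a log2 ratio of -4.98 (-5.24 to -4.74). Krt18 and Krt19 stood at 111 and 59.8 CPM in the 44 members against 1188 and 1316 in glandular cells. Stratified keratins made up 97.6% of the UMIs of the 17 stratified and 6 simple keratins in the 44 members, 51.2% in the other 7 and 3.69% in glandular cells. Krt8, Krt18 and Krt19 are also genes of the glandular rule, so this contrast is descriptive.

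Basal-layer genes were higher or not called. Of 17 measured, 12 were higher and 0 lower, with a median log2 ratio of 2.01. Without the rule's 4 genes it was 8 of 13, with a median of 1.43. Col17a1, the transmembrane collagen of hemidesmosomes, stood at 276 CPM (255 to 298) against 1.74, a ratio of 7.31 (7.02 to 7.62). Igfbp3, a secreted binding protein of insulin-like growth factors, stood at 441 CPM against 4.80. Its highest level, 3875 CPM, was in 1 of the 7 members with a high glandular sum. Cdh3 (P-cadherin) stood at 39.2 CPM against 1.86. The hemidesmosome integrins Itga6 and Itgb4 differed less, at 545 against 417 CPM and at 200.2 against 134 CPM, and the laminin gene Lamb3 had a ratio of 0.20. Another laminin gene, Lama3, was higher at 365 against 136 CPM.

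All 17 measured suprabasal-layer genes were higher, 2 of them rule genes, with a median log2 ratio of 5.63. Dmkn (dermokine) stood at 398 CPM against 8.02 and was found in 48 members. Fabp5, the epidermal fatty acid binding protein, stood at 2092 CPM (2034 to 2151) against 37.9, in 46 members. Sfn, the 14-3-3 sigma protein that stratified cells use in cell cycle exit, was found in every member, at 1552 CPM against 358. Ly6d stood at 999.5 CPM against 109, and Gsta4 at 537 against 45.0. Calml3 also counted as higher, but 1 cell held 79.3% of its 111 UMIs, and Mal, at 44.7 CPM, stood at 18.6 CPM in the 44 members.

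Cornified-envelope genes were mostly at low levels. Of 20 genes in that list, 6 had 0 UMIs in the members: Flg, Flg2, Hrnr and Rptn of the granular layer, Sprr3 and Crct1. Lor, the main protein of the epidermal envelope, had 45 UMIs in 21 members, or 19.2 CPM. Tgm1, the membrane transglutaminase that crosslinks envelopes, was the exception at 158 CPM against 4.25, in 42 members. The envelope plakins Ppl and Evpl stood at 64.8 and 45.6 CPM, with ratios of 1.42 and 1.89. Tgm3 and Asprv1 were lower, at 4.69 against 25.2 CPM and at 8.09 against 34.04 CPM.

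Junction genes split by type. The desmosome list had 10 measured genes, of which 7 were higher and 2 lower (median 1.81). Dsg3 and Dsc3, the desmosomal cadherins of stratified epithelium, stood at 484 CPM against 10.04 and at 157 against 2.15. The plaque proteins Pkp1 and Dsp stood at 255 against 24.3 and at 1020 against 305 CPM, and Perp, a p63 target, at 760 against 125. The lower genes were the simple-epithelial Dsg2 and Pkp2, and Pkp2 kept 1.16 CPM in the 44 members against 77.9 in glandular cells. Among 11 tight and gap junction genes, 3 were higher and 4 lower. The gap junction genes Gja1 and Gjb2 stood at 222 against 5.29 and at 44.3 against 5.37 CPM, and Cldn1, the barrier claudin of skin, at 34.9 against 0.55. The colon claudins Cldn2, Cldn3, Cldn7 and Cldn23 were lower, while Ocln, Tjp1 and F11r had ratios between -0.49 and -0.33. Cldn3 and Cldn7 are genes of the glandular rule, and without rule genes 3 of 9 were higher and 2 lower.

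Transcription factors of stratified epithelium were higher as a group. Higher levels were seen for 11 of 17 measured and lower for 0 (median 1.87). Besides Trp63 at 314 CPM (292 to 337) against 0.11, they included Barx2 at 121 CPM against 5.65, Zfp750 at 66.0 against 6.36, Grhl1 at 50.7 against 5.27 and Ovol1 at 86.5 against 19.3. Sox2, a factor of foregut and other stratified progenitors, had 73 UMIs in 27 members, or 31.1 CPM against 2.02. Tfap2a and Tfap2c had 53 UMIs each, at 22.6 CPM, against 0.14 and 0.09. Factors shared with the colon, Klf4, Klf5, Ehf, Elf3 and Grhl2, were not called either way.

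Transcription factors that mark position along the body were mostly lower. Of 16 measured, 10 were lower and 2 higher (median -1.19), and with the 44 members the median was -1.39. The 2 higher genes were Pitx1 and Pax9. Pitx1, known from hindlimb and pituitary development, stood at 260.3 CPM (240.1 to 281.8) against 0.22, a log2 ratio of 10.15 (9.44 to 11.08), and was found in 48 of 51 members. Pax9, a factor of foregut and oral epithelium, stood at 36.6 CPM against 0.85, in 35 members. The posterior gene Hoxb13 was kept at 93.3 CPM (81.4 to 107) against 141 in glandular cells, a ratio of -0.60 (-0.80 to -0.41). Hoxb13 was found in 39 of the 51 members and Pitx1 in 48, and 36 had both. Whether the 2 genes occurred together beyond their separate frequencies was not tested. Hoxd13 and Hoxd11 stood at 20.9 and 23.9 CPM, near the glandular 25.96 and 18.5. Nkx2-1 of lung and thyroid, Gata4 and Hoxc13 had 0 UMIs. Pitx1 (ENSMUSG00000021506) lies on chromosome 13, 55825051 to 55836192, minus strand, and Hoxb13 (ENSMUSG00000049604) on chromosome 11, 96194316 to 96197447, plus strand.

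The intestinal programme was lower. Of 27 measured glandular identity genes, 24 were lower and 0 higher (median -1.93). Among the 21 that neither rule used, 18 were lower and 0 higher (median -2.01). In the 44 members 26 were lower and the median was -4.35. A low sum of the glandular rule's genes chose those 44, so their lower level is partly fixed by the choice. The gut factors Hnf4a and Cdx1 had 1 UMI each in those 44 cells, against 92.0 and 62.4 CPM in glandular cells. Lypd8, a surface protein that keeps bacteria off colonocytes, stood at 2994 CPM in glandular cells, 638 in the 51 members and 99.9 in the 44. Epcam, the epithelial adhesion molecule and a gene of the glandular rule, stood at 416 CPM in the 44 members against 2214. Car2 (carbonic anhydrase 2) was not lower, at 137 against 122 CPM.

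Wnt target and stem cell genes of the crypt were lower too. Of 20 measured, 16 were lower and 2 higher (median -1.78), and with the 44 members the median was -2.63. The feedback genes Nkd1, Notum and Axin2 stood at 5.23, 6.97 and 10.5 CPM in the 44 members against 308, 152 and 149 in glandular cells. Prox1 stood at 2.32 against 263 CPM, and Dkk2, a secreted Wnt antagonist, at 6.39 CPM in all 51 against 162. Lgr5, the crypt stem cell receptor, kept 55.2 CPM in the 44 members against 184, and was found in 20 members. The members with the most Lgr5 held 29, 19 and 14 UMIs. Of the 20, 19 also had Trp63, a rule gene found in 47 of all 51 members. The 2 higher genes were Cd44, at 1178 CPM against 293, and Myc, at 104 against 44.7.

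**Figure D3:**
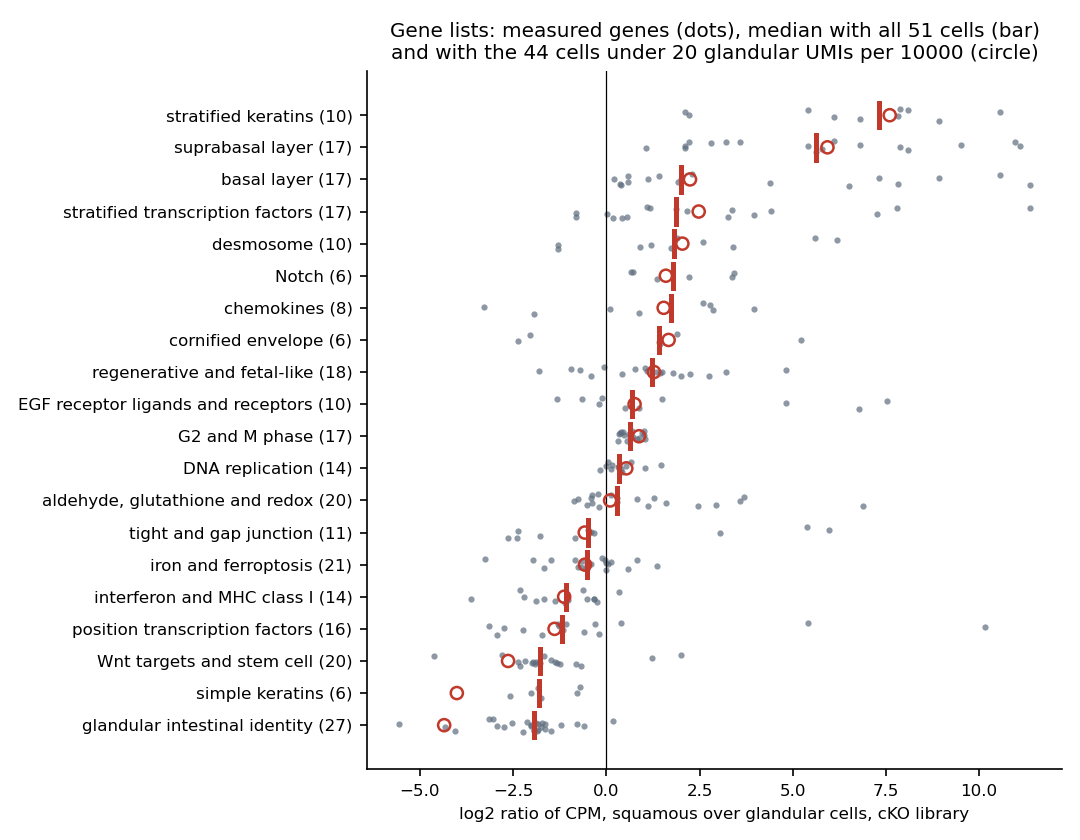
Log2 ratios of squamous over glandular CPM for 20 gene lists (rows, number of measured genes in brackets). Dots are genes, red bars the median with all 51 cells, open circles the median with the 44 cells under 20 glandular UMIs per 10000. Stratified keratins (median 7.33) and suprabasal genes (5.63) lie on the right, glandular identity genes (-1.93, and -4.35 with the 44 cells) on the left.

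The genes with the highest ratios over the whole table came partly from the lists (Defb1, Serpinb2, Aqp3) and partly from outside them. Ifi202b, of the interferon-inducible p200 family, led them at 472 CPM (445 to 501) against 0.14, in 40 members. Its close relatives make that count uncertain. Pi15, a secreted peptidase inhibitor, stood at 423 CPM against 0.25, in 46 members. Defb1, an antimicrobial beta-defensin, stood at 60.1 against 0.03, and Serpinb2, a protease inhibitor of stressed keratinocytes, at 493 against 0.57. Aqp3, the water and glycerol channel of basal keratinocytes, stood at 231 CPM against 0.33, in 45 members. Ntm, a cell adhesion protein, and Wnt4, a Wnt ligand, were each found in 48 members, at 271 against 0.77 and at 199 against 1.07 CPM. Other genes that the same rule chose included Tenm2, P3h2, Lypd3, Chl1, Dapl1 and Colec12, with log2 ratios from 7.18 to 8.30.

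A run of Tmprss11 genes, which encode membrane-bound serine proteases of airway and squamous surfaces, was among the leaders. Tmprss11d stood at 433 CPM against 1.17, Tmprss11g at 170.0 against 0.25, Tmprss11b at 163 against 0.44 and Tmprss11a at 82.2 against 0.08. They lie side by side on chromosome 5 of GRCm38, minus strand, from Tmprss11d at 86302217 to 86373420, through Tmprss11a at 86410410 to 86468990 and Tmprss11g at 86485876 to 86518600, to Tmprss11b at 86657631 to 86676362. Of the 7 Tmprss11 genes counted, at least 3 were found in 35 members and 0 in 4. The other family genes, Tmprss11e, Tmprss11f and Tmprss11c, were at 34.5, 8.52 and 2.13 CPM and were looked up after the 4 had been seen. Spink5, an inhibitor of skin proteases, stood at 101 CPM, but 14 cells held it and 1 of them 46.8% of its UMIs.

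The 20 genes with the lowest ratios were of mixed kinds. Pnliprp2, a pancreatic-type lipase, stood at 4.26 CPM against 218, a log2 ratio of -5.61 (-6.74 to -4.80). Spink1 stood at 3.41 against 148 CPM, and Muc2, the goblet cell mucin, at 11.5 against 236. The Paneth-type products Lyz1 and Defa24 stood at 19.2 against 502 and at 14.48 against 563 CPM. Detection was similar in both populations, 50.98% of squamous and 45.5% of glandular cells for Defa24 and 52.9% and 49.8% for Lyz1, and Ptprc cells had 31.3 and 35.2 CPM. Defa24 belongs to a family of near-identical copies. For several named genes the members' level came largely from the 7 cells: Mdga2 stood at 78.8 CPM in all 51 and 11.03 in the 44, against 778, and Kcnb2 at 13.6 and 1.16, against 141. Vim, a filament gene of mesenchymal cells that the glandular tumour cells also carried at 313 CPM, stood at 24.7 and 8.13.

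Ligands of the epidermal growth factor (EGF) receptor family were high in the squamous cells. Of 10 measured ligands and receptors, 4 were higher and 1 lower. Nrg1, the neuregulin ligand of ErbB3 and ErbB4, stood at 294 CPM (272 to 316) against 1.58, a ratio of 7.53 (7.23 to 7.86), in 34 members. A single cell held 24.1% of the Nrg1 UMIs, and the median member had 57.9 CPM. Epgn (epigen) stood at 137 CPM against 1.23, Ereg (epiregulin) at 234 against 8.25, and Areg (amphiregulin) at 1106 against 392.1. Areg was the widest spread, in 50 members, while Epgn was found in 24. The receptor genes Egfr, Erbb2 and Erbb3 were not called either way, at 263 against 143, 21.7 against 23.8 and 64.8 against 74.5 CPM. Btc, betacellulin, was lower.

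Notch genes were also higher, in 4 of 6 measured, with a median of 1.79. The ligands Jag1 and Jag2 stood at 104 CPM against 10.01 and at 50.7 against 4.75, in 48 and 36 members. Notch1 stood at 115 against 44.7 CPM, and the feedback gene Nrarp at 30.2 against 6.53. The target Hes1, at 610.1 against 373 CPM, and Notch2 were not called.

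Inflammatory genes differed in both directions. Of 8 measured chemokine genes, 4 were higher and 2 lower. Cxcl5, a neutrophil attractant of epithelium, stood at 921 CPM (882 to 960.3) against 135, but 30.0% of its UMIs came from 1 cell. Ccl20 stood at 233 CPM against 15.0, in 19 members, with 29.1% of its UMIs in 1 cell. Cxcl3 and Ccl2 were higher as well, at 100.1 against 13.7 and at 48.6 against 8.05 CPM, with 30.6% and 52.6% of their UMIs in 1 cell each. Cxcl10 and Cxcl1 were lower, at 10.2 against 101 and at 52.8 against 202 CPM. Ptprc cells carried Cxcl3 at 727 CPM and Ccl2 at 111, above the squamous level for both, and the part of free RNA in them was not tested. Interferon and MHC class I genes were lower in 8 of 14 and higher in 0, with a median of -1.07, such as Ifit1 at 6.39 against 81.9 CPM and B2m at 239 against 490 CPM.

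Regenerative genes that the injured colon also switches on were higher in 11 of 18, with a median of 1.22. Anxa1 stood at 2822 CPM (2755 to 2891) against 698 and was found in every member, from 298 to 8768 CPM. Anxa8 stood at 501 against 74.7, Emp1 at 596 against 172, and Ly6a (Sca-1) at 1052 against 491 CPM. Clu, a marker of revival stem cells, was the 1 lower gene, at 86.5 against 302, and at 28.5 CPM in the 44 members. S100a6, at 4577 against 4775 CPM, was near-equal.

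Several detoxifying enzymes were higher. Of 20 measured aldehyde, glutathione and redox genes, 8 were higher and 0 lower. Gsto1, a glutathione transferase, stood at 1389 CPM against 179.6, Cbr2, a carbonyl reductase, at 145 against 11.3 in 50 members, and Aldh3a1, the aldehyde dehydrogenase of cornea and squamous mucosa, at 21.3 against 0.17. The glutathione synthesis genes Gclc and Gclm stood at 220.3 against 90.8 and at 270.1 against 125 CPM. Of 21 iron and ferroptosis genes, 1 was higher, Mtch2, and 4 were lower, Slc40a1, Trf, Alox12 and Alox15. Gpx4, the enzyme that reduces lipid peroxides, stood at 212 against 195 CPM. Slc7a11, the cystine transporter, stood at 75.0 against 42.9, and Fth1, ferritin heavy chain, at 2152 against 3437 CPM.

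Protease inhibitors, defence genes and transporters differed in part. Of 8 measured proteases and inhibitors, 5 were higher and 0 lower, among them Serpinb5 (maspin), found in every member, at 242 CPM against 68.3, and the cathepsin inhibitor Cstb at 343 against 136. The skin proteases Klk5, Klk6 and Klk7 had 0 UMIs. Of 8 epidermal defence genes, S100a14, S100a16 and Defb1 were higher and Lcn2, an iron-sequestering antimicrobial protein, was lower at 86.5 against 267 CPM. With the 44 members the called genes of that list were 1 higher and 3 lower of 8. Its median did not turn, at 0.15 with all members and 0.42 with the 44. Among 7 interleukin and alarmin genes, Il33 and Il6ra were higher, at 92.0 against 45.1 and at 47.7 against 11.1 CPM, and Il18, Tnf and Il1b were lower. Of 11 transport genes, Aqp3, Atp1b3 and Clca2 were higher and 6 were lower, such as Atp1b1, a sodium pump subunit, at 18.6 CPM in the 44 members against 602. Of 6 barrier lipid genes, Fabp5 and the lipid transporter Abca12 were higher and Degs2 and Elovl7 lower. Of 16 immediate early genes, which tissue dissociation can switch on, Ier3 alone was called, at 567 against 258 CPM, and of 13 genes of the mitochondrial genome 0 were called, with a median of -0.51.

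Mtch2, the gene deleted in the model, was higher in squamous than in glandular cells of the same library. It had 140 UMIs in 43 members, or 59.6 CPM (50.2 to 70.4), against 23.5 CPM (22.3 to 24.7) in cKO glandular cells, a log2 ratio of 1.35 (1.08 to 1.595). WT glandular cells had 92.6 CPM (90.6 to 94.6), and Ptprc cells 43.6 CPM in cKO and 55.1 CPM in WT. The 44 members stood at 72.6 CPM (60.4 to 86.5) and the other 7 at 24.0 CPM (13.4 to 39.6) from 15 UMIs. The squamous level lay between the 2 glandular levels, at -0.63 (-0.89 to -0.39) from WT glandular cells, and -0.35 (-0.62 to -0.10) with the 44 members. Among cKO glandular cells with Xist and no Y-linked UMI, Mtch2 was at 33.3 CPM, and against those 244 cells the squamous ratio was 0.84 (0.53 to 1.14), no longer 2-fold. The floxed exons are not named in the labels, and a transcript without them could still be counted.

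Vil1, whose promoter drives Cre, was nearly silent in the members with few glandular transcripts. It had 7 UMIs in 7 of the 44, or 4.06 CPM (1.63 to 8.37), below the 10.4 CPM (8.48 to 12.7) of cKO Ptprc cells, which should lack it. Glandular cells had 139 CPM in cKO and 131 in WT, and the 7 members with a high glandular sum had 129.6 CPM. Cre recombination is permanent, so Vil1 RNA at the time of sampling does not record earlier Cre activity. Mtch1, the paralog, stood at 117 CPM against 127, Tfrc, the transferrin receptor gene, at 68.6 against 116, and E2f4 at 28.1 against 28.3 CPM. In GRCm38 Mtch2 (ENSMUSG00000027282) spans 90847155 to 90866810 of chromosome 2, plus strand, and Vil1 spans chromosome 1, 74409376 to 74435559, plus strand.

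**Figure D4:**
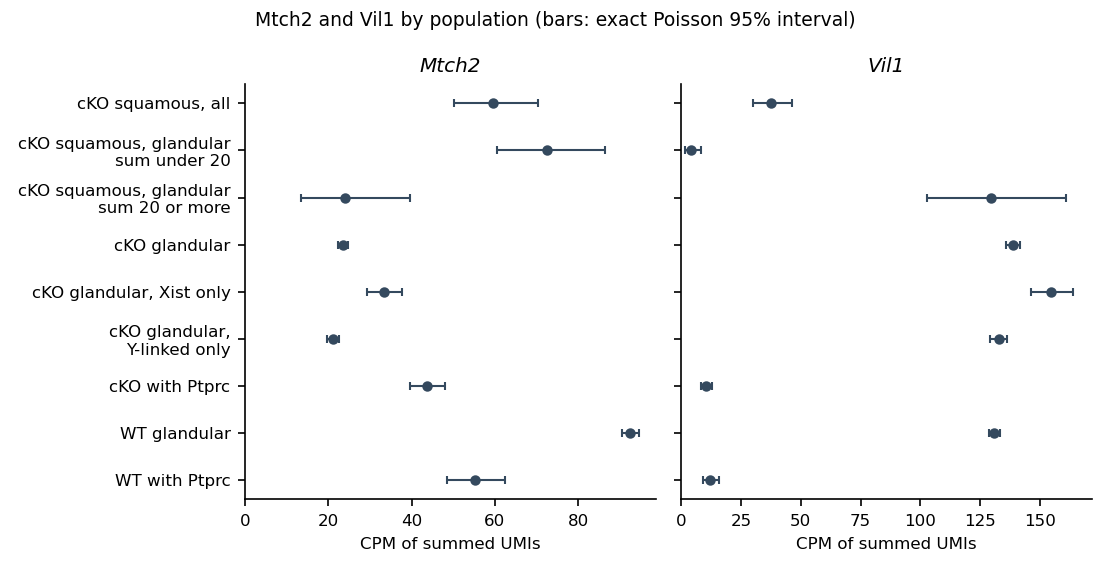
Mtch2 (left) and Vil1 (right) in CPM of summed UMIs by population (rows), with exact Poisson 95% intervals that cover counting error only. Mtch2 is at 72.6 CPM in the 44 squamous cells with few glandular transcripts and 23.5 in cKO glandular cells, and Vil1 is at 4.06 and 139 CPM.

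Sex-linked transcripts were uneven between the populations. Xist was found in 50 of 51 members, 33 of them with no UMI of the Y-linked genes Ddx3y, Uty, Kdm5d and Eif2s3y, 17 with both and 1 with neither. When detection needed 2 UMIs, 44 had Xist alone, 4 both, 2 Y-linked transcripts alone and 1 neither. Those 2 were the cells with the highest glandular sums. At 1 UMI no member had Y-linked transcripts without Xist, whereas 925 of 1494 cKO glandular cells (61.9%, 59.4 to 64.4) did and 244 (16.3%, 14.49 to 18.3) had Xist alone. In the 44 members Uty had 1 UMI in all, against 104 CPM in glandular cells. The squamous cells and most glandular cells of the library differed in these transcripts. Against the 244 glandular cells with Xist alone, 639 genes were higher and 1082 lower. The number of animals behind the 51 cells is unknown.

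Proliferation genes were near or above the glandular level. All 17 measured G2 and M phase genes had ratios above 0, from 0.31 to 1.05, and 3 were higher by 2-fold: Cdk1, Ccnb1 and Birc5. Over all 7839 measured genes 8.25% were higher and the median log2 ratio was -0.12. The share of all measured genes above 0 is not given here. The list's UMIs were uneven, with 7 in the median member and 100 or more in 10 members. Mki67 stood at 146 CPM (131 to 162) against 94.5, in 27 members. After thinning to 3000 UMIs, 23.5% of members (12.8 to 37.5) had at least 5 UMIs of that list, against 10.6% of glandular cells (9.12 to 12.3) and 2.08% of Ptprc cells. Without thinning the shares were 60.8%, 35.1% and 11.5%. Among 14 DNA replication genes, Rrm1 and Rrm2, the subunits of ribonucleotide reductase, were the 2 higher ones.

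The members were placed on a range from basal to suprabasal keratins. The suprabasal share of each cell, the UMIs of Krt1, Krt10, Krt4, Krt13, Krtdap, Sbsn, Dmkn and Krt78 over those plus 8 basal genes (Krt5, Krt14, Krt15, Trp63, Itga6, Itgb4, Col17a1 and Cdh3), had a median of 0.068 and ran from 0 to 0.99. Krt5, Krt14, Krt15 and Trp63 on the basal side and Krtdap on the other are also genes of the membership rule, so the low median is partly fixed by how the cells were chosen. The share reached 0.5 in 2 cells, and 3 lay within 0.1 of that value. The cell at 0.99 had no Krt5, Krt14 or Krt15 UMI, 12946 CPM of Krt13, 5882 of Krt4 and 1911 of Krt10. The next, at 0.51, had 2782 CPM of Krt5 with 2987 of Krt13 and 6003 of Krt6a. This is a range cut at a chosen value, not a set of types.

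Genes that the share did not use varied along it. Fabp5 stood at 3102 CPM in the 26 cells with the higher share and 909.6 in the 25 with the lower, and Gsto1 at 1972 and 707. A single cell held 29.4% of the Gsto1 UMIs, and without it the levels were 1262 and 707, under 2-fold. Krt6b stood at 306 and 51.8 CPM (158 and 51.8 without the cell that held 43.6% of its UMIs), Tmprss11a at 127 and 29.6, and Grhl3, a factor of terminal differentiation, at 81.4 and 37.9 (71.0 and 37.9 without its top cell, under 2-fold). Calml3 and Sprr1a were concentrated in 1 cell each, with 79.3% and 76.1% of their UMIs. On the basal side Ccn2, a YAP target, stood at 93.4 CPM against 5.53, Mgp at 255 against 56.9, Thbs1 at 193 against 48.2 and Egr3 at 185 against 50.6. The lower-share cells included 4 of the 7 members with a high glandular sum, and glandular genes differed the same way: Krt8 stood at 1313 against 247 CPM, Krt19 at 612 against 163 and Lgals4 at 773 against 85.3. In the 44 members Ccn2 stood at 103 against 2.05 CPM and Mgp at 331 against 57.5. Thbs1 stood there at 229.8 against 39.02 and Egr3 at 204 against 54.4. Of the glandular genes, Krt8 stood at 88.2 against 71.9 and Krt19 at 54.8 against 63.7 CPM in the 44. Lgals4 still differed, at 57.5 CPM in the lower-share cells against 24.6. All 20 genes of the G2 and M phase list had ratios of higher-share over lower-share cells above 0, from 0.47 to 2.37 with a median of 1.04 (0.79 when each gene's top cell was left out). Only 17 of the 20 met the 20 CPM level in the squamous or glandular cells. The share of all genes above 0 in this split is not given here, so that count has no background. Mki67, at 186 and 98.0 CPM, was under 2-fold, and Ccnb1, at 73.5 and 13.9, had the highest ratio. Cells with 10 or more UMIs of that list numbered 15 of the 26 and 8 of the 25, at medians of 40018.5 and 35311 UMIs. Mgp, Thbs1 and Egr3 were picked after their values were seen.

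**Figure D5:**
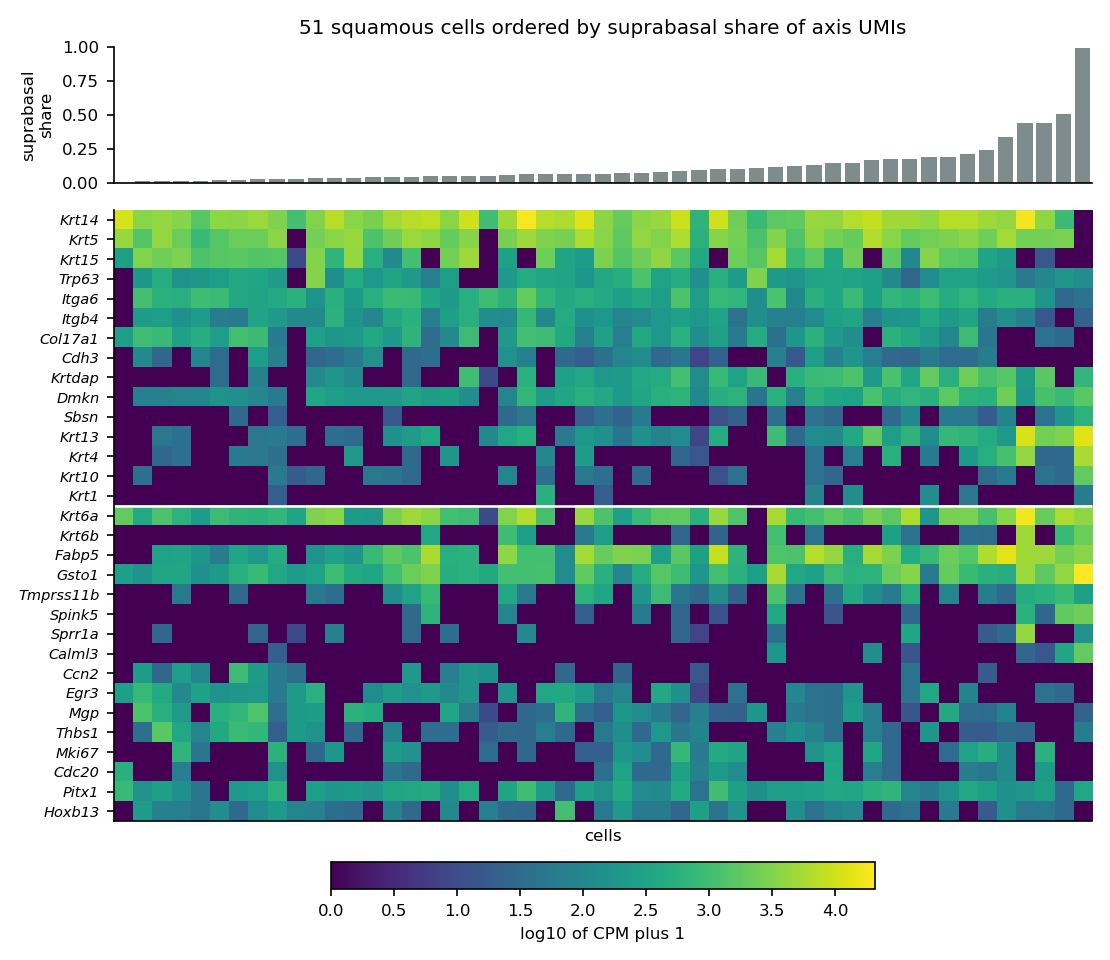
The 51 squamous cells from left to right by their suprabasal share (bars, 0 to 1), with log10 of CPM plus 1 of 31 genes below (rows). Genes above the white line define the share. The share rises past 0.5 in 2 cells, and Fabp5 is brighter on the right and Ccn2, Mgp and Thbs1 on the left.

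Markers of other cell types were mostly at low levels in the members, with 2 called exceptions besides the hair follicle gene Sostdc1: Dcn of fibroblasts and Isl1 of Merkel cells. The 7 T cell genes summed to 8.09 CPM against 902 in Ptprc cells, with Cd3d at 0, and the 9 macrophage and dendritic genes to 57.9 against 11527, with Adgre1 and Cd207, the Langerhans cell lectin, at 0. The 6 B and plasma cell genes summed to 6.39 CPM against 485, and Ms4a1 and Mzb1 were at 0. The 6 endothelial genes summed to 16.2 CPM against 17.5 in glandular cells, with Cdh5 and Kdr at 0. The 7 fibroblast genes summed to 40.05 CPM against 18.2 in glandular cells. Dcn, the only one measured, was higher at 29.8 against 5.65 CPM, a log2 ratio of 2.41 (2.85 with the 44 members), with 70.0% of its 70 UMIs in 1 cell. Isl1, the only measured melanocyte or Merkel gene, was higher at 45.2 against 17.1 CPM, a ratio of 1.40. Of the 14 hair follicle genes present in the matrix 8 were at 0, among them the inner root sheath keratins Krt25, Krt27, Krt28, Krt71 and Krt73. Sostdc1, the only measured hair follicle gene, had 47 UMIs in 16 members and 0 in glandular cells. Its level was 423-fold that of a floor of 3 counts, without the counting error of the 47 UMIs. The lower limit of its log2 ratio was 8.37. The 12 sebaceous genes summed to 151 CPM against 264 in glandular cells, with 2 at 0, Awat1 and Elovl3. Of the 4 measured sebaceous genes, 0 were higher and 1 lower. Of 10 melanocyte and Merkel genes 4 were at 0, among them Mlana, Tyr and Tyrp1. The 7 neutrophil genes summed to 127 CPM, against 163 in glandular cells and 12071 in Ptprc cells.

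Squamous transcripts were also counted outside the members. The glandular rule required a squamous sum under 1 per 10000, which caps their level there. Krt14 was at 9.49 CPM in cKO and 6.54 CPM in WT glandular cells, and Krt5 at 1.64 and 0.07 CPM, and Krt14 was still detected in 21.4% of the cKO glandular cells (319 of 1494). Among Ptprc cells of the cKO library, Krt14 reached 145 CPM but was found in 7.26% of cells and Krt5 in 2.59%, and the WT Ptprc cells had 6 Krt14 and 0 Krt5 UMIs. The highest squamous sum among the cKO Ptprc cells was 165 per 10000. That cell was 1 of the 2 that failed membership on Ptprc alone. The parts of that cell and of free RNA in these values were not tested.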

How the data were processed

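The authors deposited 1 UMI count matrix per library. Per the file headers, the software was Cell Ranger 7.2.0. Seurat 3.0 and mm10 are named in the submitters' processing notes, and any filter before deposit is not stated there. The deposited counts were used unchanged for 16168 barcodes, of which 7397 were kept. Genes were placed with GENCODE M21 (GRCm38), which matched 32158 of 32285. UMIs were summed per population and scaled to CPM with Python 3.11.15 and scipy 1.17.1, with 0.5 counts added for log2 ratios. Doublets were called with Scrublet in scanpy 1.11.5 and kept. Named genes were the 25 with the highest ratio (at least 50 CPM, in at least 25% of squamous cells) and the 20 with the lowest (at least 100 CPM, in at least 25% of glandular cells). For detection shares, cells were thinned to 3000 UMIs. The ratio code was tested on simulated data. The members and lists were chosen with earlier results of these data known. Alternatives changed the cell filters, the rule, the scaling and the reference. Results for some genes that the rule or lists hold are not reported here.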

Additional observations from a re-analysis of the deposited data

How the results depend on the processing

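The cKO member count ran from 48 to 56 and the WT count from 0 to 3 over the alternatives. Genes higher and lower numbered 377 and 575 when measured meant 50 CPM, and 1572 and 2324 when it meant at least 1 count, since different numbers of genes were then eligible. The Mtch2 log2 ratio was 1.63 with the 44 members and 0.84 against glandular cells with Xist alone, an alternative added after seeing the data. The suprabasal side held 26 cells when divided at the median, and Xist alone was found in 44 members when detection needed 2 UMIs. The neutrophil list median changed sign to 0.33 with marked doublets left out and 1.42 against glandular cells with Xist alone, from 2 measured genes. The interleukin and alarmin median changed sign to 0.24 with marked doublets left out, 0.22 with a glandular threshold of 40, 0.085 with the 44 members, and 0.93 with mitochondrial, ribosomal, haemoglobin and immunoglobulin genes left out of the scaling. Along the basal to suprabasal range, the Krt19 log2 ratio turned from -1.91 to 0.21 with the 44 members, an alternative added after seeing the data. The cause was not tested. No paired analysis was possible because there was 1 library per genotype and the labels give no replicate numbers. Depth limits genes with few UMIs, and the 51 cells come from 1 library.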
